A study of Mus musculus with 6 samples.

Results

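The annexin and S100 genes studied here were Anxa1 to Anxa6, S100a4, S100a6, S100a10 and S100a11, measured in LSK cells of wild-type mice and of mice labelled Gfi1 knockout. Their members were all probe sets of the array whose platform annotation names exactly 1 gene symbol and whose symbol is 1 of these 10 genes. They covered 9 of the 10 genes with 15 probe sets, among 22626 that are not controls, 11 for the 6 annexins and 4 for S100a4, S100a6 and S100a10. The annotation gives S100a11 only on 1 probe set that it shares with other symbols, so S100a11 was not analysed here.

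Annexins are cytosolic proteins that bind negatively charged phospholipids of membranes when calcium rises, and they act in membrane repair, vesicle traffic and the control of inflammation. S100 proteins are small dimers with EF-hand calcium-binding loops that change shape on binding calcium and then dock onto targets, among them annexins. The S100A10 dimer, which no longer needs calcium, joins annexin A2 in a complex at the plasma membrane, and S100A11 is known to bind annexin A1. In blood formation several of these genes are known for high expression in mature myeloid cells.

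LSK cells are bone marrow cells that lack lineage markers and carry Sca-1 and Kit, a fraction rich in stem cells and early progenitors. Sorted LSK cells of Gfi1 knockout mice and of Gfi1 wild-type mice gave 3 samples each, numbered 5, 7 and 8 in both groups, and each sample was measured on 1 single-colour array. Gfi1 encodes a zinc finger repressor of transcription. The labels name no allele, strain, age or treatment and leave unsaid whether a sample is 1 mouse or a pool, so each p-value reflects sample-to-sample spread, which may be technical. In such bulk samples fewer cells of a type and less RNA per cell cannot be told apart.

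The 6 arrays were alike in scale, with a 2% trimmed mean signal near 1000 on each, in arbitrary units, and median signals of 286 to 335. The brightest control probe set for a Bacillus transcript, taken here as the level below which a signal is only a bound, lay between 100.2 and 162. The Gfi1 probe set was not lower on the knockout-labelled arrays (692 to 1737) than on the wild-type arrays (608 to 723). It stood 0.76 higher on the log2 scale, with overlapping groups and a limma adjusted p of 0.148. That adjusted p was 0.0341 to 0.459 under alternative settings of the fit. Where that probe set lies relative to the deleted part is not known here, and the group is called knockout-labelled throughout. Of 14 listed LSK and early progenitor markers 12 had a probe set and 0 of these stayed at the control level on all 6 arrays. Their summed signal was 78817 to 84494 on the knockout-labelled and 76429 to 82443 on the wild-type arrays. Mpo is in this sum, at 32139, 29663 and 26909 on knockout-labelled arrays 5, 7 and 8, against 13036, 12096 and 23370 in wild type. Only 4 of the 12 markers stood above 0, with a median log2 difference of -0.30, so the alike sums do not show alike markers. Of the 12, 1 was called higher and 3 lower, beside 1.45% and 2.15% of all tested probe sets. Kit, Flt3 and Hlf fell by 0.71, by 1.19 and by 1.26 and Mpo rose by 0.93 on the log2 scale (limma adjusted p of 0.0407, 0.00598, 0.00306 and 0.0266).

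Among the annexins, Anxa3 rose and Anxa4 fell in the knockout-labelled arrays, and no other tested member passed the threshold. Each difference below subtracts the wild-type from the knockout-labelled mean of log2(signal + 16), and its error is the fit's standard error (SE). The adjusted p-values come from limma over the 13575 brightest probe sets, with a threshold of 0.05. Of the 15 member probe sets 10 were bright enough to be tested. 1 of the 10 was called higher, where 1.45% of all tested probe sets were, and 1 was called lower, where 2.15% were. Arrays of the groups did not overlap for 3 tested probe sets that were higher, of Anxa3 and Anxa6 (12.0% of all tested probe sets). Nor did they overlap for 1 that was lower, of Anxa4 (12.2%). The median difference of the 10 tested member probe sets was 0.34, beside -0.01 over all tested probe sets. Anxa6 and S100a10 each count more than once among the 10.

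**Figure D1:**
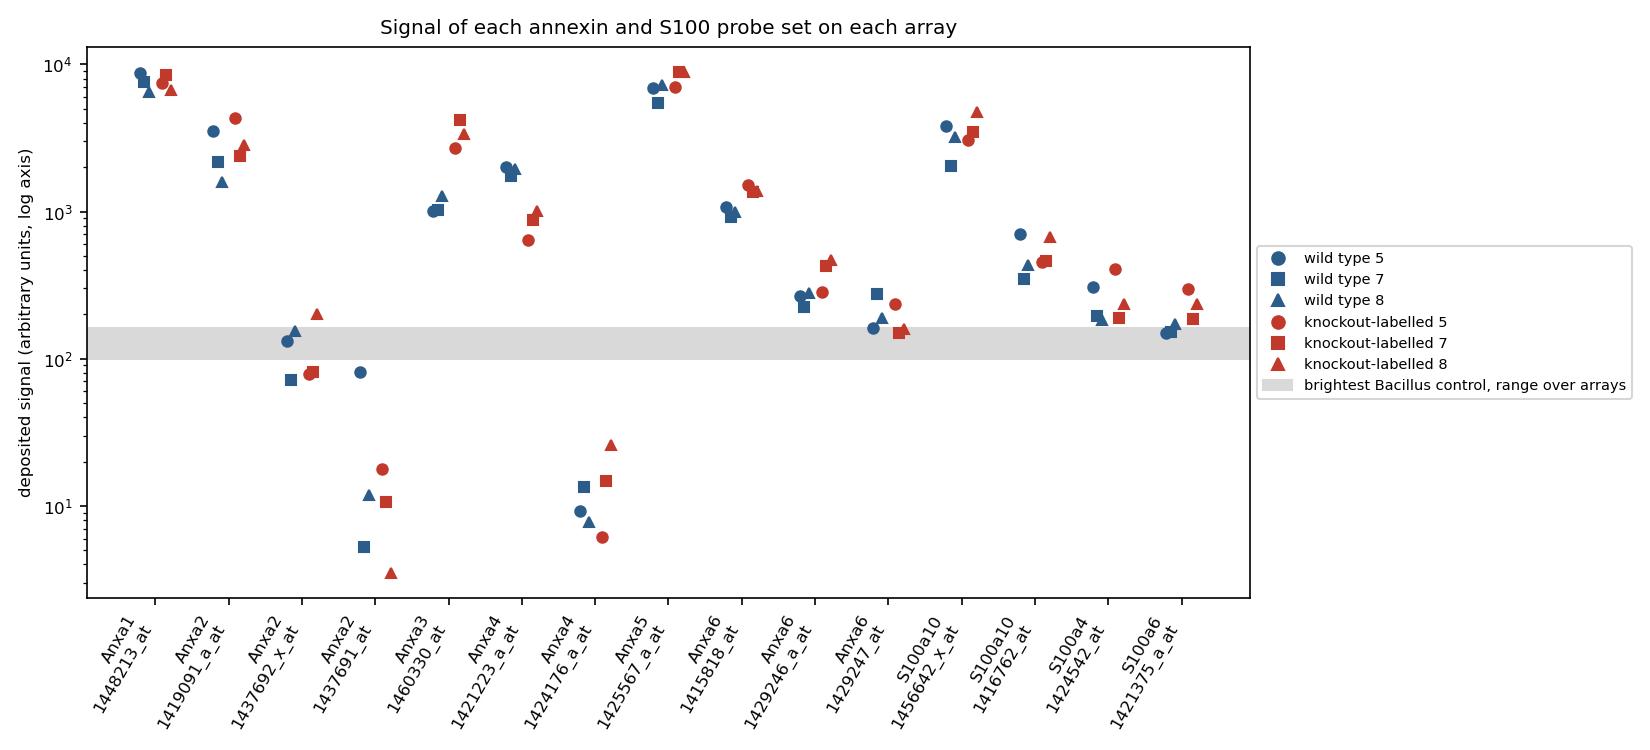
Deposited signal (arbitrary units, log axis) of each of the 15 probe sets on each array. Blue symbols are wild-type and red symbols knockout-labelled arrays, the shape gives the sample number, and the grey band spans the brightest Bacillus control of the arrays (100.2 to 162). The groups stand apart for Anxa3, for the brighter Anxa4 probe set, for the 2 brighter Anxa6 probe sets and for S100a6.

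Anxa3 encodes an annexin that is abundant in neutrophils and other myeloid cells. Its single probe set (1460330_at) gave signals of 2712, 4202 and 3390 on knockout-labelled arrays 5, 7 and 8, against 1016, 1029 and 1268 on their wild-type counterparts. The lowest knockout-labelled array was above the highest wild-type array. Its mean was 3435 ± 746 in the knockout-labelled group and 1104 ± 142 in wild type (SD, n = 3 each). Anxa3 rose by 1.61 ± 0.20 (SE), a 3.05-fold difference with a limma adjusted p of 0.00117. Between arrays of the same number the difference was 1.40, 2.01 and 1.41 for numbers 5, 7 and 8. Anxa3 passed the threshold under all 15 alternative settings run, 6 of which leave out 1 array, with differences of 1.45 to 1.77 and adjusted p of 0.000715 to 0.0126.

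Anxa4 encodes an annexin best known from epithelial cells, where it binds the inner face of membranes and can limit ion channel activity. It was the member that fell. Its brighter probe set (1421223_a_at) gave 643, 872 and 1005 on knockout-labelled arrays 5, 7 and 8, against 2022, 1738 and 1937 in wild type. Every knockout-labelled array lay below every wild-type array, with means of 840.1 ± 183 and 1899 ± 146 (SD, n = 3 each). The difference was -1.18 ± 0.20 (SE), a 2.27-fold higher level in wild type, with a limma adjusted p of 0.00787. Within numbers 5, 7 and 8 it was -1.63, -0.98 and -0.94. This probe set also passed under all 15 alternative settings, at -1.32 to -1.005 and adjusted p of 0.00626 to 0.0322. The second Anxa4 probe set (1424176_a_at) lay between 6.17 and 26.1 on the 6 arrays, below the control level on each, and says nothing on the direction.

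Of the 2 called genes, Anxa4 is the one with an entry in the RefSeq promoter table (GRCm38.p6), so the stretches before its 2 listed starts are shown. The entries for Anxa3, Anxa6 and S100a10 are missing. Capitals mark AATC or its reverse complement GATT, the core of the sequence that GFI1 is known to bind. The outer stretch is chr6:86793635-86793834 and the inner one chr6:86775115-86775364, both on the minus strand and printed 5′ to 3′. The inner stretch ends at the listed start, and the outer one ends 50 bases short of its own, before the first base of the annotated gene.
Anxa4 outer start: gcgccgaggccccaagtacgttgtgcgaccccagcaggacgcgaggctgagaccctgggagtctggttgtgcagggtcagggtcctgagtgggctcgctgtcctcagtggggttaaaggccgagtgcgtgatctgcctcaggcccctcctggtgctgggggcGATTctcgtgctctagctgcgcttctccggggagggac
Anxa4 inner start: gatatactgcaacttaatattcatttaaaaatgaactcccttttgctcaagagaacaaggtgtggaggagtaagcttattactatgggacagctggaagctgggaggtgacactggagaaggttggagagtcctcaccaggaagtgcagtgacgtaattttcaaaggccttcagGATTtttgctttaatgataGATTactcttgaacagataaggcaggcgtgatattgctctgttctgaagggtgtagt

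The outer stretch holds 1 core and the inner stretch 2. The core is short, and 73.1% of all 32851 promoter windows of 300 bases (250 before and 50 after a start) hold it on either strand. The longer GFI1 site TAAATCAC was found in 0 of the 8 windows of the 7 members with an entry, and 0.578% of all windows hold it. GAGGAAGT, a PU.1 site, was found in the S100a4 window (3.20% of all windows). The C/EBP site TTGCNNAA was found in the Anxa1 window and the inner Anxa4 window (10.8% of all windows). Both strands were searched, the GFI1 site contains the core, and a match in letters is not a measured site.

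Anxa6, an annexin with a duplicated core that acts on endosomes and recruits a GTPase-activating protein to Ras, was higher without passing the threshold. The brightest of its 3 probe sets (1415818_at) gave 1509, 1347 and 1380 on knockout-labelled arrays 5, 7 and 8, against 1077, 922 and 992 in wild type. The groups did not overlap, the difference was 0.50 ± 0.18 (SE), and limma's adjusted p was 0.145. The next probe set (1429246_a_at) gave 285, 428 and 471 against 265, 225 and 280, with a difference of 0.57 ± 0.27 (SE, adjusted p = 0.276), and again no overlap. Across the 3 numbers the brightest probe set differed by 0.47 to 0.54 and the next one by 0.10 to 0.88, all above 0. The dimmest (1429247_at) stood at 234, 149 and 158 against 161, 277 and 188, at or below the control level on 1 array of each group and below the brightness filter. It went the other way by -0.19, with overlapping groups.

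Anxa5, whose protein binds phosphatidylserine and is used to stain dying cells, gave 7030, 8861 and 8868 on knockout-labelled arrays 5, 7 and 8, against 6872, 5472 and 7242 in wild type (1425567_a_at). Knockout-labelled array 5 lay among the wild-type arrays. The difference was 0.34 ± 0.16 (SE, limma adjusted p = 0.277), with a 95% interval of -0.02 to 0.69, and 0.22 without wild-type array 7.

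Anxa1 encodes annexin A1, a glucocorticoid-induced protein that dampens inflammation through formyl peptide receptors. It was the member closest to no difference. Its signals were 7416, 8496 and 6663 against 8746, 7587 and 6493 (1448213_at), so the groups covered the same range. The difference was -0.01 ± 0.16 (SE, limma adjusted p = 0.982), and its 95% interval of -0.36 to 0.34 leaves out changes of the size seen for Anxa3 or Anxa4. The sign was positive with median centring, at 0.04, and without knockout-labelled array 8 (0.07) or wild-type array 5 (0.09).

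**Figure D2:**
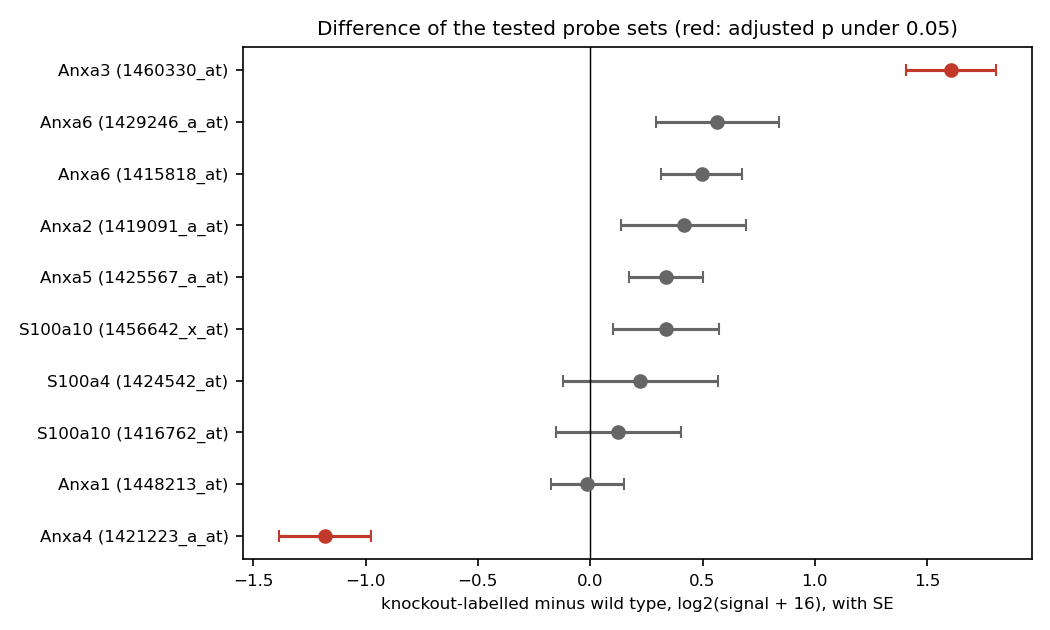
Knockout-labelled minus wild-type mean of log2(signal + 16), with bars of 1 SE from limma, for the 10 tested probe sets. Red points passed the threshold on the adjusted p. Anxa3 stands at 1.61 and Anxa4 at -1.18, and the other 8 lie between -0.01 and 0.57.

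Anxa2 and S100a10 encode the partners of the plasma membrane complex. Anxa2 (1419091_a_at) gave 4307, 2386 and 2819 on knockout-labelled arrays 5, 7 and 8, against 3519, 2178 and 1581 in wild type. The groups overlapped, with a difference of 0.42 ± 0.28 (SE, limma adjusted p = 0.450). It was 0.17 without knockout-labelled array 5, 0.15 without wild-type array 8 and 0.72 without wild-type array 5. Each knockout-labelled array was nevertheless above the wild-type array of its number, by 0.29, 0.13 and 0.83. Of the dimmer Anxa2 probe sets, 1437691_at lay below the control level on all 6 arrays (3.49 to 81.4). The other, 1437692_x_at, lay at or below it on 4 of them (71.8 to 201).

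The brighter S100a10 probe set (1456642_x_at) gave 3073, 3447 and 4738 against 3803, 2027 and 3208. The dimmer one (1416762_at) gave 455, 464 and 669 against 706, 349 and 436. Both ranked the wild-type arrays in 1 order, 5 highest and 7 lowest, and both had knockout-labelled array 8 highest of its group. Their differences were 0.34 ± 0.24 and 0.13 ± 0.28 (SE), with limma adjusted p of 0.470 and 0.862 and overlapping groups. The brighter one stood at 0.16 without knockout-labelled array 8, at 0.08 without wild-type array 7 and at 0.53 without wild-type array 5. The dimmer probe set turned negative without knockout-labelled array 8 (-0.05) or wild-type array 7 (-0.09). Probe sets with the suffix _x_at can hybridise with other transcripts. In the knockout-labelled group Anxa2 was highest on array 5 and S100a10 on array 8, so the partners did not rank those arrays alike.

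S100a4 encodes a regulator of non-muscle myosin that is linked to cell motility. Its signals were dim, at 406, 188 and 235 on knockout-labelled arrays 5, 7 and 8, against 309, 194 and 184 in wild type (1424542_at). The array numbered 5 was the highest of both groups. The difference was 0.22 ± 0.34 (SE, limma adjusted p = 0.786). It was -0.08 without knockout-labelled array 5, 0.09 and 0.13 without wild-type arrays 8 and 7, and 0.45 without knockout-labelled array 7 or wild-type array 5.

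S100a6, or calcyclin, binds a ubiquitin ligase adaptor, the product of Cacybp. It gave 299, 186 and 236 against 149, 153 and 173 (1421375_a_at), every knockout-labelled array being above every wild-type array. Its mean signal over the arrays, 199, was under the 209.5 of the dimmest probe set tested, so it had no adjusted p in the main test. Without the brightness filter its difference was 0.54 with a limma adjusted p of 0.511. Wild-type array 5 was at or below the control level.

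**Figure D3:**
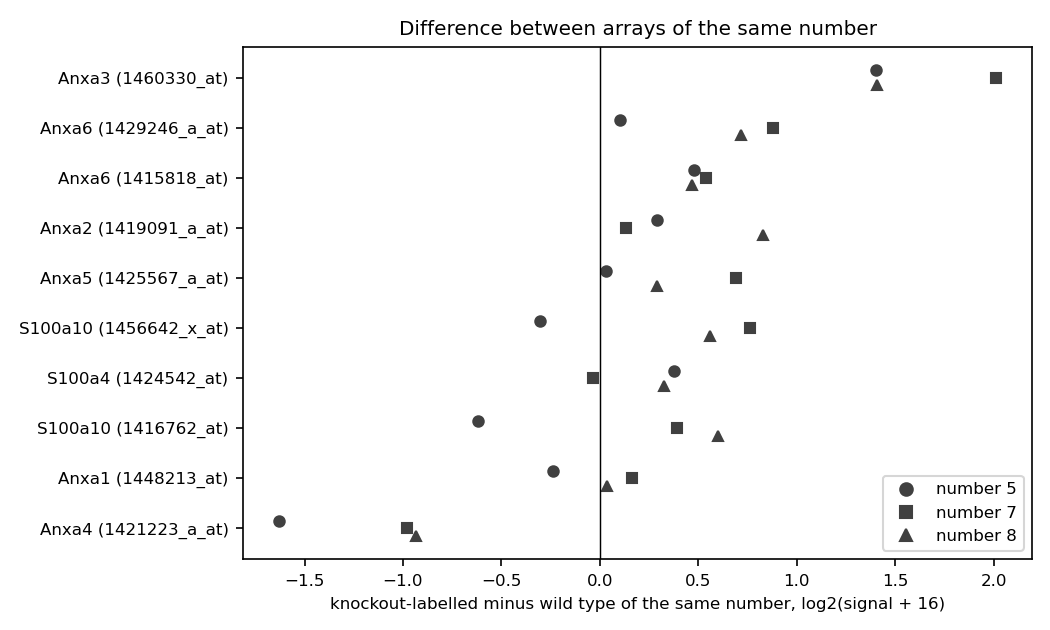
Difference between the knockout-labelled and the wild-type array of the same number (circle 5, square 7, triangle 8) on the log2(signal + 16) scale, for the 10 tested probe sets. All 3 numbers agree in sign for Anxa3, Anxa4, Anxa5, both Anxa6 probe sets and the Anxa2 probe set. For both S100a10 probe sets and for Anxa1, number 5 is below 0 while numbers 7 and 8 are above it.

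The arrays numbered 5 had the highest Anxa2 and S100a4 signals of their groups, and the summed signal of neutrophil markers was also highest there. That sum was 14762, 8927 and 7402 on knockout-labelled arrays 5, 7 and 8, against 42031, 22244 and 20747 in wild type. Without S100a8 and S100a9, which the list holds, it was 4810, 5365 and 3864 against 19202, 11116 and 9649, so knockout-labelled array 5 was then no longer the highest. Of 11 neutrophil markers with a probe set 9 were tested, 4 fell and 1 rose, and 0 were at the control level throughout. Beside this count and those below, 1.45% of all tested probe sets were called higher and 2.15% lower. The monocyte and macrophage markers summed to 26401 to 34662 on the knockout-labelled and 17853 to 20988 on the wild-type arrays, with 4 of 11 tested markers up and 0 down. The erythroid markers summed to 11727 to 12343 against 20916 to 27842, with 1 of 7 down. The mast cell and basophil markers summed to 6079 to 8776 against 3291 to 5718, with 1 of 4 up, and the T and NK cell markers to 3251 to 3842 against 2889 to 3056, with 0 of 2 called. Of 10 T and NK cell markers with a probe set only 2 were bright enough to be tested, so that sum is mostly of dim probe sets. The sums of the B and plasma cell, megakaryocyte and platelet, and stromal and endothelial markers overlapped between the groups. Anxa3 moved in the direction of the monocyte, mast cell and T and NK cell sums and against the neutrophil and erythroid sums. Anxa4 moved in that of the neutrophil and erythroid sums. The part of such cells in these results was not tested.

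The genes whose pattern over the 6 arrays was most like Anxa3, by Pearson correlation of log2(signal + 16) among 8234 other genes, were Csf2rb (r = 0.998), Tars (0.995) and Maoa (0.993). Csf2rb, the shared beta chain of cytokine receptors, and Maoa, a monoamine oxidase, passed the threshold themselves, at 2.07 (limma adjusted p = 0.000608) and 0.81 (0.0292). Tars, a threonyl-tRNA synthetase, stood at 0.50 (0.0949). For Anxa4 the most alike were Banp (r = 0.992), Bcl11a (0.989) and Zfp868 (0.989), at -0.71, -0.63 and -0.54, with limma adjusted p of 0.128, 0.0711 and 0.212. Bcl11a is a transcription factor of lymphoid and stem cells. With 6 arrays in 2 groups, each of these correlations includes the group difference. They were also picked as the highest among 8234 genes, and how high such picks would be by chance was not computed. Shared regulation with Anxa3 or Anxa4 was therefore not tested.

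Among the other annexin and S100 genes S100a9 was the gene called. Of 18 listed genes 15 had a probe set and 8 were tested. Of these 8, 0 were called higher and 1 lower (0 and 2 at an unadjusted p under 0.05), beside 1.45% and 2.15% of all tested probe sets (9.27% and 10.6% unadjusted). The median difference was 0.02. The summed signal of the list was 7745 to 13845 on the knockout-labelled and 14613 to 27216 on the wild-type arrays, so the groups did not overlap. S100a8 and S100a9 are in this sum. S100a8 alone gave 16480, 7923 and 8479 on wild-type arrays 5, 7 and 8, and 7951, 2600 and 2964 on the knockout-labelled ones. The sum thus largely follows these 2 genes, and 5 of the 8 tested genes stood above 0. S100a9, a subunit of the neutrophil protein calprotectin, fell by 1.84 ± 0.39 (SE), from 6349, 3204 and 2619 on the wild-type arrays to 2001, 962 and 575, with a limma adjusted p of 0.0220. Its call was lost without knockout-labelled array 7 or 8 or wild-type array 5 or 7 (adjusted p of 0.0699, 0.111, 0.0536 and 0.0639). It was also lost without the brightness filter (0.0761) and with eBayes without trend (0.0802). Its partner S100a8 (1419394_s_at, a less specific probe set by its suffix) stood at -1.39 ± 0.36 (SE, adjusted p = 0.0525, and 0.00119 with the replicate number as a block). Without knockout-labelled array 5 S100a8 passed too, at -1.89 (0.00402). With any other array left out S100a8 fell short (limma adjusted p of 0.0528 to 0.216). The same held without the brightness filter (0.143) and with eBayes without trend (0.143).

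S100a4, S100a6, S100a8 and S100a9 lie in 1 cluster on mouse chromosome 3. In the RefSeq order S100a5 stands between S100a4 and S100a6, and S100a7a between S100a6 and S100a8, with no other protein-coding gene between them. S100a10 and S100a11 are direct neighbours further along, with 54 other protein-coding genes between S100a7l2 and S100a11. S100a5 stood at 0.40 ± 0.35 (SE, limma adjusted p = 0.582). The neighbours S100a4, S100a5 and S100a6 were thus at 0.22, 0.40 and 0.54, none of them called and S100a6 below the brightness filter. Within the same cluster S100a8 and S100a9 were at -1.39 and -1.84, and S100a9 alone was called.

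**Figure D4:**
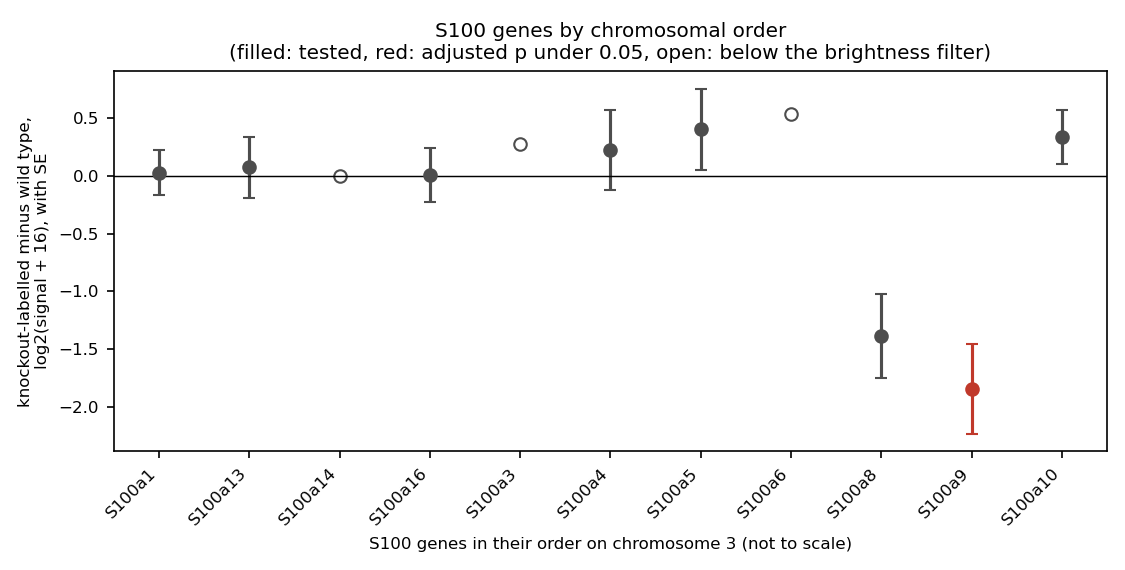
Knockout-labelled minus wild-type mean of log2(signal + 16) for the S100 genes with a probe set, in their order on chromosome 3 (not to scale), with bars of 1 SE from limma for tested probe sets. Open points lay below the brightness filter, and red marks the adjusted p under 0.05. S100a8 and S100a9 are at -1.39 and -1.84, and the other points lie between 0.00 and 0.54.

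Among the known partners and receptors of annexins and S100 proteins, 12 of 18 listed genes were tested. 0 were called higher and 2 lower (0 and 3 at an unadjusted p under 0.05), where all tested probe sets gave 1.45% and 2.15% (9.27% and 10.6% unadjusted), and the median difference was 0.10. S100pbp, which encodes an S100P-binding protein, fell by 0.97 ± 0.23 (SE), from 3510, 4571 and 3985 to 1375, 2689 and 2292 (limma adjusted p = 0.0365). Hltf, a helicase-like transcription factor bound by the complex of annexin A2 and S100A10, fell by 0.68 ± 0.16 (SE), from 3841, 3937 and 3653 to 2174, 2271 and 2697 (limma adjusted p = 0.0384). The groups did not overlap for either gene, but both calls were near the threshold. With median centring the adjusted p was 0.0768 for S100pbp and 0.116 for Hltf. Hltf fell short with any 1 array left out (0.0557 to 0.133), while S100pbp still passed without knockout-labelled array 7 (0.0324) or wild-type array 5 (0.0438). S100pbp fell short without knockout-labelled array 5 or 8 or wild-type array 7 or 8 (0.0936, 0.105, 0.1503 and 0.0602).

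The plasma membrane repair genes, where annexins act as a cap on the wound, gave 1 call. Of 13 tested genes 0 were higher and 1 was lower (0 and 1 at an unadjusted p under 0.05), with a median of 0.06. The shares over all tested probe sets were 1.45% and 2.15% (9.27% and 10.6% unadjusted). Myof, a ferlin that fuses membranes in response to calcium, gave 367, 44.4 and 175 on knockout-labelled arrays 5, 7 and 8, against 691, 970 and 654 in wild type. Its probe set (1427318_s_at) is of a less specific kind by its suffix. It fell by 2.24 ± 0.50 (SE, limma adjusted p = 0.0266). Knockout-labelled array 7 was under its control level, so its signal is only a bound, and without that array the difference was -1.52 (adjusted p = 0.0416). With pseudocounts of 64 and 1 it was -1.88 and -2.41. The call was lost without knockout-labelled array 8 (0.0930), without wild-type array 7 (0.130), without the filter (0.0939) and with eBayes without trend (0.0793).

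The other cytosolic calcium-binding genes, among them plastin, actinin and copine genes, gave no call. Of 13 tested genes 0 passed limma's threshold in either direction (at an unadjusted p under 0.05, 1 was higher and 0 lower). The shares of all tested probe sets were again 1.45% and 2.15%, and 9.27% and 10.6% unadjusted. The median was -0.02. The smallest p-values were those of Efhd2 at 0.47 ± 0.20 and Cib1 at 0.44 ± 0.21 (SE), with adjusted p of 0.202 and 0.257.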

How the data were processed

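The input was the deposited table, in which each probe set has a linear intensity value per array that the authors made with MAS5 per the submitters' processing notes. No label gives the MAS5 version or settings, and detection calls were not used here. Per the labels' protocols the RNA was amplified in 2 rounds, which favours the 3' end of transcripts. Gene names came from the platform annotation, where 20380 probe sets have 1 symbol, 691 several and 1555 none.

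limma 3.58.1 in R 4.3.3 (lmFit, eBayes with trend, two-sided) was fitted to log2(signal + 16) on all 6 arrays, over the 60% of non-control probe sets with the highest mean signal. P-values were adjusted by Benjamini-Hochberg over the 13575 tested. Because of the added 16, folds of dim probe sets are understated. Precision is limited by the number of arrays, so a probe set that was not called is not shown to be unchanged. Simulated data with known changes were used to test the fit, and most of those changes were not called.

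After subtraction of group means, arrays numbered 5, 7 and 8 correlated across the groups at 0.148, 0.161 and 0.239. The numbers were therefore treated as pairs in an alternative. Differently numbered arrays correlated at -0.130 to -0.0239. Deviations from a group mean cancel out within the group, so these negative values follow from the positive ones and are no separate sign of pairing. The labels do not say what the numbers mark.

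For calls and medians, list genes were taken by their brightest tested probe set. Summed signals and the counts at the control level took the brightest of all probe sets of a gene, tested or not. The named genes were all members, Gfi1, list genes past the threshold (else the smallest p), and the 3 genes most like each called member. S100a5 and S100a8 were added after their values were seen. The members and lists were chosen with earlier results of these data known.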

Additional observations from a re-analysis of the deposited data

How the results depend on the processing

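Of 15 alternatives, 14 were planned, and a filter on the mean log2 signal was added after the data were seen. The member counts, 1 higher and 1 lower, stayed at 1 and 1 under each of the 15, among them the replicate block (the sample number as a block) and the 6 that leave out 1 array. The block changed no call of a member. The S100a6 probe set was tested under 4 settings and passed under none of them (adjusted p of 0.3997 to 0.603). Signs turned for 3 tested member probe sets, none of them called. Anxa1 was at 0.0440 with median centring and between -0.121 and 0.0930 with 1 array left out. The dimmer S100a10 probe set ranged from -0.0895 to 0.402 and S100a4 from -0.0779 to 0.446 with 1 array left out.

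The 1 lower call among the other annexin and S100 genes became 2 with a pseudocount of 64, the replicate block or the mean log2 filter, 0 without the filter or with eBayes without trend, and 0 to 2 with 1 array left out. The 2 lower calls among partners became 0 without the filter, with median centring or with eBayes without trend, and 0 to 1 with 1 array left out. The 1 call among repair genes became 0 without the filter, with eBayes without trend or without the less specific probe sets, and 0 to 1 with 1 array left out. Over all probe sets the calls numbered 197 higher and 292 lower, against 69 and 119 without the filter, 57 and 116 without trend, 312 and 461 with the block, and 191 lower with median centring. With 1 array left out they numbered as few as 32 and 86. Signals near the control level limit Anxa2's dimmer probe sets, the second Anxa4 probe set, the dimmest Anxa6 probe set, S100a4 and S100a6.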
